A study of Mus musculus with 6 samples.

Results

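This report describes the genes of calcium, potassium, sodium and transient receptor potential (TRP) channels in group 3 innate lymphoid cells (ILC3s) that carry the chemokine receptor CCR6. Members were taken by a rule on names, as genes whose single annotated symbol begins with Cacna, Cacnb, Cacng, Kcn, Scn and a number, Trpa, Trpc, Trpm, Trpv, Orai, or Stim and a number. They were proposed with earlier results of these data known. The rule found 154 of the 19938 genes tested, on 174 probe sets, and 8 members had more than 1 probe set. It takes in accessory proteins and some transcripts that are not channels, namely Trpc4ap, Kcnrg and 4 antisense transcripts, which are described with their families.

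The cells were sorted from the small intestinal lamina propria of adult C57BL/6 mice and profiled on Affymetrix gene arrays, 1 array per sample. The control group holds 3 arrays from Tnfsf11fl/fl mice and the RANKL-deficient group holds 3 arrays from Tnfsf11fl/fl mice that also carry a Cre transgene. Both groups therefore carry the floxed alleles of Tnfsf11, the gene of the cytokine RANKL, and the groups differ by that transgene. No Cre is named for the control mice, so an effect of Cre itself cannot be told apart from that of the deletion. The labels do not say that each sample is a different mouse, so p-values reflect only the scatter of these samples, and that scatter may be technical.

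Voltage-gated calcium, potassium and sodium channels open on a change of membrane potential and are best known from nerve and muscle. Lymphocytes rely on a smaller set. Emptying of the endoplasmic reticulum is sensed by STIM proteins, which open ORAI pores in the plasma membrane, and the calcium that enters activates calcineurin and the NFAT transcription factors. Potassium channels keep the membrane potential negative and so sustain this entry, and several TRP channels carry mixed cation currents.

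Values are log2 expression values as deposited, and every difference is RANKL-deficient minus control on that scale. Levels of different genes are not compared, since probe sets differ in sensitivity. Array medians ran from 5.07 to 5.15, but control arrays 1 and 2 had a narrower spread over genes (SD 1.86 and 1.93, against 1.99 to 2.01 on the other arrays). The limma array weights ranked the control arrays otherwise, at 0.45, 1.43 and 0.60 for arrays 1, 2 and 3, against 1.32 to 1.47 for the RANKL-deficient arrays. Differences without control arrays 1 and 2 therefore rest on control array 3 alone, an array with a low weight. The gating marker Ccr6 measured 9.13 ± 0.62 (control, SD, n = 3) and 9.45 ± 0.15 (RANKL-deficient, SD, n = 3). Il7r, the interleukin-7 receptor chain of innate lymphoid cells, measured 12.28 ± 0.035 (control, SD, n = 3) and 12.26 ± 0.033 (RANKL-deficient, SD, n = 3). Over the whole list of 19 measured ILC3 and lymphoid tissue inducer genes, 11 were higher and 8 lower, with a median difference of 0.10 (−0.06 without control arrays 1 and 2). Among these, 4 were higher and 1 lower without overlap (21.1% and 5.26%, against 5.28% and 9.08% of all genes). All 19 had means above the median of all gene means, and of all genes above it the shares were 9.12% and 6.11%. Cxcr5 at 0.85 had the smallest unadjusted p of the list, and none of the 19 passed the adjusted threshold (limma). The median of all gene means was 5.12, and genes are called above or below the median gene by that value. Tnfsf11 itself measured 8.76, 8.41 and 8.25 on the control arrays and 8.36, 8.65 and 8.52 on the RANKL-deficient arrays (limma adjusted p = 0.963). Where its probes lie in the gene, inside or outside the floxed part, is not given, so the labels cannot be checked by it. An array labelled RANKL-deficient is called so on the strength of its label.

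No channel gene passed the adjusted threshold of 0.05 (limma, Benjamini-Hochberg over all genes), where 0.00502% of all genes passed. At an unadjusted p under 0.05 there were 4 members with higher values and 7 with lower values in RANKL-deficient cells. Over all genes the corresponding shares were 4.25% and 3.9%, against 2.60% and 4.55% of the members, so neither count stands out from the background. The groups were fully separated, with no overlap of their arrays, for 4 members in the higher direction, where the background was 5.28%, and for 21 members in the lower direction, where it was 9.08%. The 21 are 13.6% of the members.

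Most channel genes had slightly lower values in RANKL-deficient cells, and in such sorted samples fewer cells of a type and less RNA per cell cannot be told apart. The median difference was −0.11 and 119 of 154 members were lower, beside a median of −0.05 and 60.5% lower over all genes. Most members also lay low on the arrays, with 119 of 154 below the median gene. Among all genes below that median, the median difference was −0.10, 75.6% were lower and 12.1% were lower without overlap. The members below it gave −0.11, 81.5% and 13.4%, close to the other dim genes. Among the 35 members above it, 22 (62.9%) were lower, with a median difference of −0.07, and 5 (14.3%) were lower without overlap. All genes above the median went the other way, with 45.3% lower, a median of 0.03 and 6.11% lower without overlap. Without control arrays 1 and 2 the median of these 35 members was 0.06. Without control arrays 1 and 2 the median difference was 0.01 for the members and 0.00 for all genes.

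**Figure D1:**
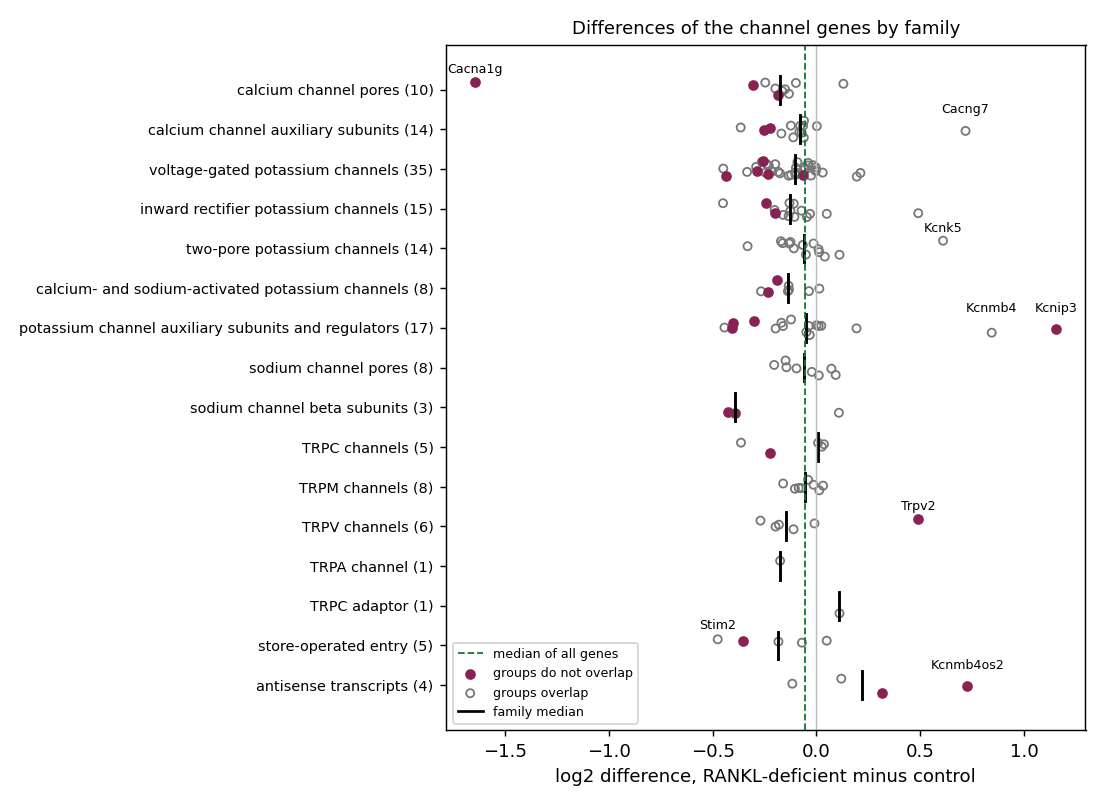
Log2 difference of each of the 154 members, RANKL-deficient minus control, by family, with the number of members in parentheses. Filled points mark members whose 3 arrays per group did not overlap, black bars the family medians and the dashed line the median of all genes (−0.05). Cacna1g lies at −1.64 and Kcnip3 at 1.16, while most other members lie within 0.5 of 0.

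The highest values lay mostly on control arrays 1 and 2. Control array 1 held the highest of the 6 values for 78 of 154 members (50.6%), against 33.4% of all genes, and control array 2 for 36 members (23.4% against 19.1%). Such shares were not taken for dim genes alone. Since most members are dim, a trait of the channel genes and one of dim genes cannot be told apart here. The lowest value lay on control array 3 for 38 members and on RANKL-deficient array 1 for 37. The median value of the members was 4.63, 4.50 and 4.30 on control arrays 1, 2 and 3, and 4.24 to 4.35 on the RANKL-deficient arrays. The control SD exceeded the RANKL-deficient SD for 109 members (70.8%), against 66.4% of all genes, with medians of 0.20 and 0.12. Of the members, 79 (51.3%) spanned less than 0.5 over the 6 arrays and 16 (10.4%) more than 1, against 38.2% and 20.03% of all genes. Among genes below the median the shares under 0.5 were 54.6% for members and 51.6% for all.

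**Figure D2:**
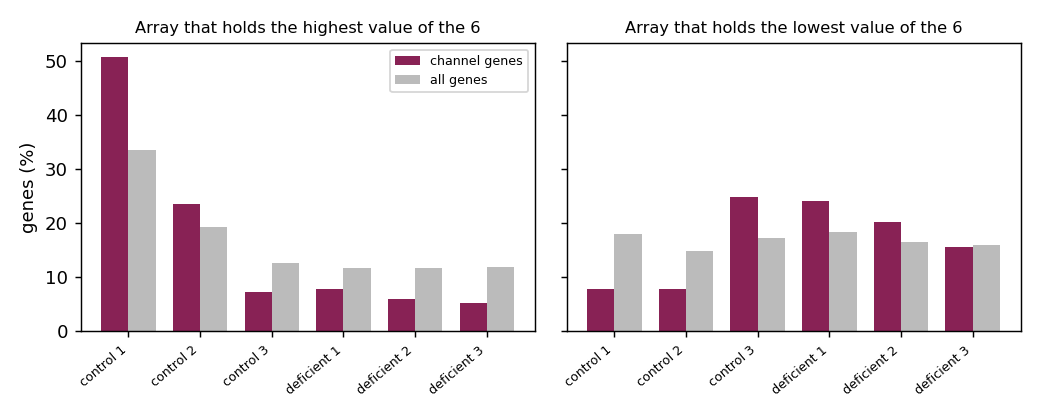
Percent of genes whose highest (left) or lowest (right) value among the 6 arrays fell on each array, for the 154 channel genes and for all 19938 genes. Control array 1 held the highest value for 50.6% of the channel genes and for 33.4% of all genes. No share for genes below the median gene alone is shown.

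The pore-forming subunits of voltage-gated calcium channels held the clearest separation. Cacna1g, which encodes a low-threshold T-type calcium channel known from thalamic neurons and pacemaker cells and also found in CD4+ T cells, measured 8.71, 8.21 and 8.19 on the control arrays and 6.38, 6.70 and 7.09 on the RANKL-deficient arrays. The groups lay 1.10 apart at their nearest arrays, the widest gap among the members that did not overlap. The difference was −1.64 (SE 0.23, 95% confidence interval −2.18 to −1.11), a 3.12-fold lower value, and it missed the adjusted threshold (limma unadjusted p = 0.000163, adjusted p = 0.245). In 16 alternative analyses the difference stayed between −1.83 and −1.46 and the adjusted p between 0.134 and 0.702. Without control arrays 1 and 2 it was −1.46 (SE 0.30, limma adjusted p = 0.664), from 1 control array, so that the spread then came from the RANKL-deficient arrays alone.

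T cell markers were lower for 8 of 11 genes, with a list mean of 5.46 to 5.76 on the control arrays and 5.41 to 5.65 on the RANKL-deficient arrays. Among them Cd3g, a chain of the T cell receptor complex, measured 7.32, 6.93 and 5.82 in control and 5.26, 4.20 and 4.89 in RANKL-deficient cells, without overlap as for Cacna1g (limma adjusted p = 0.408). Other genes of the list lay on the opposite side, with Cd4 at 0.69 and Lat at 0.51 higher without overlap. Whether the Cd4 and Lat values come from T cells or from the sorted cells themselves was not tested. Cd3e differed by −0.70 with overlap. The list thus held 2 genes higher and 1 lower without overlap (18.2% and 9.09%, against 5.28% and 9.08% of all genes). Its median difference was −0.01, or 0.07 without control arrays 1 and 2. The part of T cells in the Cacna1g value was not tested.

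The other T-type genes did not separate in this way. Cacna1h measured 4.83, 4.83 and 4.44 in control and 4.56, 4.74 and 4.41 on the RANKL-deficient arrays, which gives −0.13 (95% confidence interval −0.52 to 0.25). Cacna1i measured 4.66, 4.31 and 4.03 against 4.10, 4.10 and 4.20, a difference of −0.20 (95% confidence interval −0.61 to 0.22). The groups overlapped for each gene, and both genes lay below the median gene. Of the 10 pore genes, 9 were lower, with a median of −0.18. Of these, 3 were lower without overlap, where 9.08% of all genes and 12.1% of those below the median gene were, and 8 of the 10 lay below it. Cacna1d, an L-type pore, measured 4.12, 4.42 and 4.13 in control and 3.89, 3.85 and 4.01 in RANKL-deficient cells (limma unadjusted p = 0.0615). Cacna1e, the R-type pore, was the 1 pore gene with a higher value, at 0.13 (SE 0.15).

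**Figure D3:**
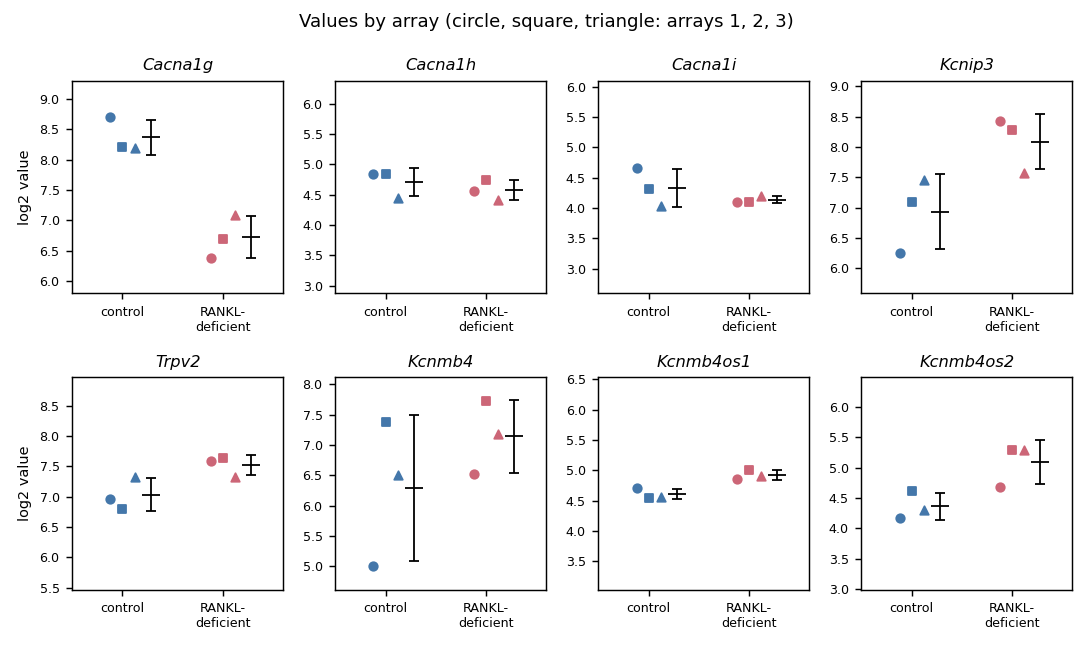
Log2 values of 8 channel genes on the 3 control and 3 RANKL-deficient arrays (circle, square and triangle for arrays 1, 2 and 3), with the group mean and SD beside them. All vertical axes span the same number of log2 units. Cacna1g lay at 8.19 or above in control and at 7.09 or below in RANKL-deficient cells, while Cacna1h and Cacna1i overlapped.

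Auxiliary calcium channel subunits, which set the trafficking and gating of the pore, were mostly near their control values. Of 14 genes, 12 were lower with a median of −0.08 and none passed. Cacng4 and Cacng7 encode subunits better known as partners of AMPA-type glutamate receptors. Cacng4 measured 5.93, 5.87 and 5.40 in control and 5.43, 5.29 and 5.39 in RANKL-deficient cells, and its difference of −0.37 was −0.03 without control arrays 1 and 2. Cacng7 measured 5.40, 5.35 and 5.23 in control and 5.21, 5.79 and 7.15 in RANKL-deficient cells. Its difference of 0.72 (SE 0.45) rested on RANKL-deficient array 3 and was 0.17 without it. Cacnb3, which was to be named, is not analysed here.

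Store-operated calcium entry, the main calcium route of lymphocytes, showed no gene past the threshold. All 5 genes had means above the median gene. Orai1, the principal pore, measured 7.13, 7.08 and 6.54 in control and 6.89, 6.97 and 6.69 in RANKL-deficient cells, and the groups overlapped. Its difference of −0.07 had a 95% interval from −0.52 to 0.38 (limma adjusted p = 0.925), and differences inside that interval were not resolved. The pore gene Orai2 measured 7.61, 6.77 and 6.75 against 6.49, 7.25 and 6.83, a difference of −0.18 (SE 0.29). Its other probe set gave 0.29, in the opposite direction. Orai3 measured 7.60, 7.96 and 7.39 against 7.21, 7.38 and 7.30. The groups of Orai3 lay only 0.003 apart at their nearest arrays, and the difference of −0.35 (SE 0.17, limma adjusted p = 0.636) was −0.09 without control arrays 1 and 2.

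The calcium sensors varied most on the control arrays. Stim1 measured 6.96, 7.20 and 7.80 in control and 7.41, 7.40 and 7.30 in RANKL-deficient cells, giving 0.05 (SE 0.22), which was −0.43 without control arrays 1 and 2. Stim2 measured 9.01, 7.92 and 7.35 in control and 7.41, 7.71 and 7.72 in RANKL-deficient cells. Its high value on control array 1 carried the difference of −0.48 (SE 0.39), which was −0.02 without that array and 0.27 without control arrays 1 and 2. For both sensors the RANKL-deficient values lay inside the control range.

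**Figure D4:**
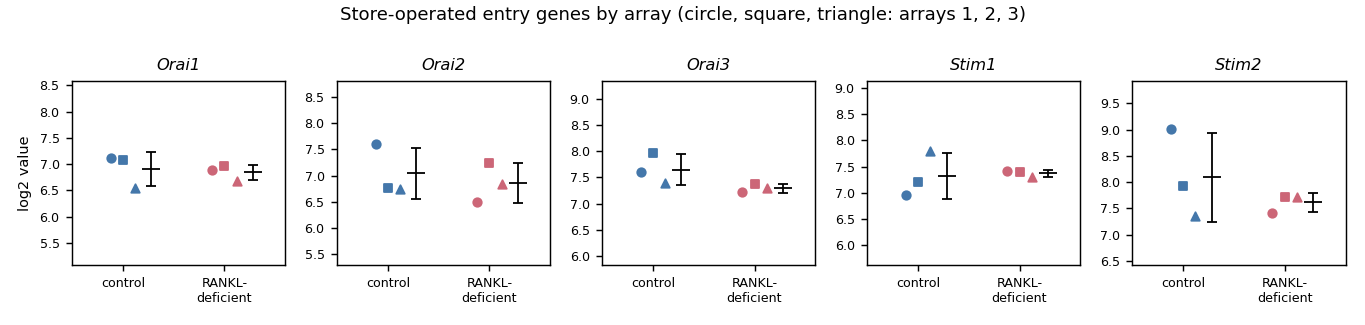
Log2 values of the 5 store-operated entry genes on the 3 control and 3 RANKL-deficient arrays (circle, square and triangle for arrays 1, 2 and 3), with the group mean and SD. The control arrays of Stim2 ran from 7.35 to 9.01 and those of Stim1 from 6.96 to 7.80, around all RANKL-deficient values.

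Potassium channel genes made up 89 of the members, of which 72 were lower, with a median of −0.11, and 19 lay above the median gene. Beta and interacting subunits, which tune the pores, held the largest higher differences. Kcnip3 encodes a calcium-binding protein that partners fast-inactivating voltage-gated potassium channels and also represses transcription under the name DREAM. It measured 6.25, 7.09 and 7.46 in control and 8.42, 8.28 and 7.57 in RANKL-deficient cells. No arrays overlapped, but control array 3 and RANKL-deficient array 3 lay 0.10 apart. The difference was 1.16 (SE 0.35, 95% confidence interval 0.33 to 1.99, limma unadjusted p = 0.0132, adjusted p = 0.517), and without control arrays 1 and 2 it was 0.63. The related Kcnip1 measured 3.58, 3.95 and 3.57 against 3.34, 3.25 and 3.29, a difference of −0.41.

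Kcnmb4, which encodes a beta subunit of the large-conductance calcium-activated potassium channel, measured 5.01, 7.38 and 6.50 in control and 6.52, 7.72 and 7.18 in RANKL-deficient cells. The groups overlapped and the difference of 0.84 (SE 0.59) was 0.20 without control array 1. Both annotated antisense transcripts of the gene had higher values in RANKL-deficient cells without overlap. Kcnmb4os2 measured 4.18, 4.62 and 4.30 in control and 4.68, 5.30 and 5.30 in RANKL-deficient cells, which differ by 0.73 (SE 0.21, limma adjusted p = 0.513). Kcnmb4os1 measured 4.71, 4.55 and 4.56 against 4.86, 5.01 and 4.91, a difference of 0.32 (SE 0.12). These differences were 0.79 and 0.36 without control arrays 1 and 2, no smaller than over all arrays. Both transcripts lay below the median gene. The gene table places both over Kcnmb4, and the strand and position of the probes are not given here, so signal from Kcnmb4 and from its antisense transcripts cannot be told apart.

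The upstream sequences of the Kcnmb4 and Kcnip3 loci are shown because Kcnip3, Kcnmb4 and Kcnmb4os2 had the 3 largest higher differences of all members. Each is 250 bases before an annotated start, 5′ to 3′ on the gene's strand, from RefSeq on GRCm38.p6, where 122 of the 154 members had an entry. Kcnmb4 is at chr10:116473524-116473773, minus strand, Kcnmb4os2 at chr10:116472913-116473162, plus strand, and the most upstream of 3 Kcnip3 starts at chr2:127522095-127522344, minus strand. Capitals mark 2 motifs on either strand, GGAAA (the core bound by NFAT) and GGGCGG (the GC box).
Kcnmb4: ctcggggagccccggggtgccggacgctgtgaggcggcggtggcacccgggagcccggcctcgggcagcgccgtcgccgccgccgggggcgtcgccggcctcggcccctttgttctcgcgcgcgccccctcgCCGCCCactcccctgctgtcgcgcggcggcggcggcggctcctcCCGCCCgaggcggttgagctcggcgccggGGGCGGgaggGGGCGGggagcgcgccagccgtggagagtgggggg
Kcnmb4os2: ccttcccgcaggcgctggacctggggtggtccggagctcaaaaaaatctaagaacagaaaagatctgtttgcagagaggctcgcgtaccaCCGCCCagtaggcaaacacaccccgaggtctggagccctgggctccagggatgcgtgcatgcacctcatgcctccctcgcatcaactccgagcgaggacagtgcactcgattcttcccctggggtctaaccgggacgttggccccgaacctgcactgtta
Kcnip3: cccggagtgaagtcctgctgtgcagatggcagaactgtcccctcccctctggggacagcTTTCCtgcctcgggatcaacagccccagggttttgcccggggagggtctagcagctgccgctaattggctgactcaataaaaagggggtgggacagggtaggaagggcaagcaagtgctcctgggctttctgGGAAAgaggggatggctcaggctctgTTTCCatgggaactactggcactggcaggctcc
The start sites of Kcnmb4 and Kcnmb4os2 lie 360 bases apart on opposite strands. The Kcnmb4 window held 4 GC boxes and 43 CpG dinucleotides, where the median window of all genes held 6 CpG, and the Kcnmb4os2 window held 1 GC box and 15 CpG. GC boxes were in 32.7% of all 32851 windows of this length. The Kcnip3 window held 3 NFAT cores, a motif found in 55.6% of all windows and in 49.1% of the members' windows, and 4 CpG.

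Among the other auxiliary potassium channel genes, Kcnrg, Kcnmb2 and Kcnmb1 were lower and Kcnab2 higher. Kcnrg, a regulator that interferes with the assembly of voltage-gated channels, measured 4.12, 4.08 and 3.86 in control and 3.64, 3.66 and 3.57 in RANKL-deficient cells, without overlap (difference −0.40, SE 0.13). Kcnmb2, a further beta subunit, differed by −0.30, with nearest arrays only 0.006 apart. Kcnmb1, the beta subunit typical of smooth muscle, measured 5.09, 4.06 and 4.96 against 4.24, 4.35 and 4.19, a difference of −0.44 (SE 0.27) that was −0.76 without control array 2. Kcnab2, a beta subunit found in lymphocytes, measured 5.92, 6.17 and 6.08 against 6.13, 6.84 and 5.77, and its difference of 0.19 turned to −0.11 without RANKL-deficient array 2.

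Among the 35 voltage-gated potassium channel genes, 32 were lower with a median of −0.10, where 60.5% of all genes and 75.6% of those below the median gene were lower. In this family 5 genes, or 14.3%, were lower without overlap, against 9.08% of all genes and 12.1% of those below the median gene. Kcna3, whose channel is a main potassium conductance of T cells, measured 6.77, 7.27 and 7.31 in control and 7.44, 7.10 and 7.44 in RANKL-deficient cells. The difference was 0.21 (95% confidence interval −0.24 to 0.66), and 0.02 without control arrays 1 and 2. Genes of the ether-à-go-go group held the smallest unadjusted p of this family. Kcnh4 measured 6.15, 5.77 and 5.66 against 5.40, 5.48 and 5.40 (difference −0.43, SE 0.16, limma adjusted p = 0.587). Kcnh8 differed by −0.29 (SE 0.12), without overlap, and its other probe set gave −0.15. Kcnh7 differed by −0.45 with all arrays and by −0.01 without control arrays 1 and 2. Kcnc1, a fast delayed rectifier of neurons, was 1 of 3 higher genes at 0.19 (SE 0.13).

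The calcium-activated channel gene Kcnn4, which sustains calcium entry in activated lymphocytes, measured 5.36, 5.37 and 5.35 in control and 5.01, 5.17 and 5.32 in RANKL-deficient cells. The groups did not overlap, but RANKL-deficient array 3 lay 0.03 below the control arrays, and the difference was −0.19 (SE 0.13, limma adjusted p = 0.711). Of the 8 calcium- and sodium-activated channel genes, 7 were lower, with a median of −0.14. Inward rectifiers were lower for 13 of 15 genes, with a median of −0.13. Kcnj8, a pore of ATP-sensitive channels in vascular muscle, measured 5.57, 4.93 and 4.70 against 4.50, 4.84 and 4.51, and its difference of −0.45 was −0.08 without control arrays 1 and 2. Kcnj13, typical of transporting epithelia, measured 5.42, 4.08 and 5.31 against 5.73, 5.07 and 5.48, and its difference of 0.49 was 0.06 without control array 2.

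Two-pore potassium channels, which carry background currents, were lower for 9 of 14 genes, with a median of −0.06 and none without overlap. Kcnk5, an acid-sensitive channel of this family reported in T cells, measured 4.63, 5.03 and 4.72 in control and 5.29, 4.78 and 6.13 in RANKL-deficient cells. Its difference of 0.61 (SE 0.33) was 0.24 without RANKL-deficient array 3, the array on which Cacng7 was also high. Kcnk1, named after its values were seen, was steady, at 9.89 to 10.24 over the 6 arrays, with a difference of −0.07 (95% confidence interval −0.41 to 0.28). Kcnk6 and Kcnj14, also picked out for their values, had differences of −0.11 and −0.03 over all arrays and of −0.64 and 0.72 without control arrays 1 and 2.

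Sodium channel genes were lower for 7 of 11, with a median of −0.10. Their beta subunits act on channel gating and on cell adhesion. Scn3b measured 4.50, 4.35 and 4.91 in control and 4.14, 4.09 and 4.26 in RANKL-deficient cells, which differ by −0.43 (SE 0.17). That difference was −0.27 without control array 3 and −0.75 without control arrays 1 and 2. Scn4b measured 4.07, 4.24 and 4.08 against 3.93, 3.74 and 3.53, a difference of −0.39 (SE 0.15, limma adjusted p = 0.59). The groups did not overlap for either gene, and both genes lay below the median gene. Lower without overlap were 9.08% of all genes and 12.1% of those below the median gene. Scn2b differed by 0.11 (SE 0.14). The 8 pore genes had a median of −0.06 and none was without overlap, and the 14 probe sets of Scn2a all gave lower values, −0.14 for the one used and −0.35 to −0.01 for the other 13.

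TRP channels respond to lipids, temperature, calcium and stretch, and 14 of their 20 genes were lower, with a median of −0.08. Trpv2, a cation channel of macrophages and other immune cells, measured 6.95, 6.80 and 7.33 in control and 7.59, 7.63 and 7.33 in RANKL-deficient cells. The groups were separated by only 0.001 between control array 3 and RANKL-deficient array 3. The difference was 0.49 (SE 0.18, 95% confidence interval 0.07 to 0.90, limma unadjusted p = 0.027, adjusted p = 0.583), and 0.19 without control arrays 1 and 2. Trpm7, a channel fused to a kinase that supports magnesium balance in lymphocytes, measured 6.38, 6.81 and 6.88 against 6.81, 6.84 and 6.46, a difference of 0.01 (95% confidence interval −0.42 to 0.45). Trpm4, a calcium-activated sodium-permeable channel, differed by −0.09 and Trpm2, gated by ADP-ribose, by −0.10, and both lay below the median gene. Trpc4ap, an adaptor rather than a channel, differed by 0.11 (SE 0.17).

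**Figure D5:**
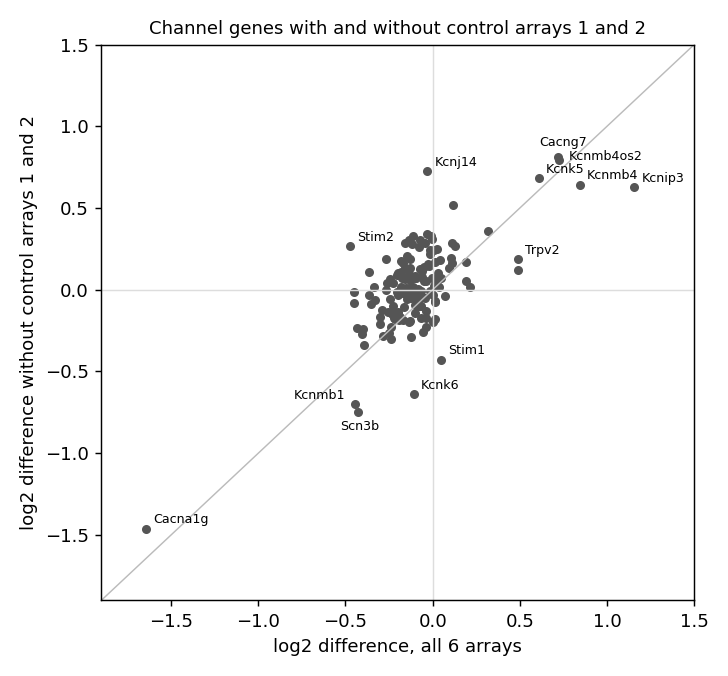
Log2 difference of each of the 154 members over all 6 arrays (horizontal) and without control arrays 1 and 2 (vertical), with the line of equal values. Cacna1g (−1.64 and −1.46) and Kcnmb4os2 (0.73 and 0.79) lie near the line, Kcnip3 goes from 1.16 to 0.63, and Stim2 from −0.48 to 0.27.

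The partners of these channels were read from lists of related genes. Of 42 measured genes of calcium release, calcineurin and NFAT, 22 were higher and 20 lower with a median of 0.00, and none passed the adjusted threshold. Micu2, a gatekeeper of the mitochondrial calcium uniporter, measured 6.57, 5.27 and 6.47 in control and 6.96, 7.04 and 7.16 in RANKL-deficient cells (difference 0.95, SE 0.33). Camk2g, a calmodulin-dependent kinase, differed by 0.74 (SE 0.26). The calcineurin genes went opposite ways, with the catalytic Ppp3ca at −0.57 (SE 0.22) and the regulatory Ppp3r1 at 0.57 (SE 0.26). Atp2a3, a pump that refills the endoplasmic reticulum, differed by 0.44 (SE 0.20).

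Of 52 measured genes of other ion channels, exchangers and pumps, 25 were higher and 27 lower, with a median of −0.02 and none past the adjusted threshold. Clic4, a chloride intracellular channel protein, measured 9.17, 8.69 and 9.07 in control and 8.22, 8.28 and 8.24 in RANKL-deficient cells (difference −0.73, SE 0.16, limma adjusted p = 0.382). The volume-regulated anion channel subunit Lrrc8d measured 5.92, 6.72 and 6.17 against 7.15, 7.16 and 7.39 (difference 0.96, SE 0.22). P2rx7, an ATP-gated cation channel of immune cells, measured 7.98, 8.10 and 8.16 against 9.03, 8.77 and 8.41 (difference 0.65, SE 0.18). None of these 3 genes, named for their small p, overlapped between the groups. The whole list held 3 genes higher and 4 lower without overlap (5.77% and 7.69%, against 5.28% and 9.08% of all genes), near the background. Piezo1, a stretch-gated cation channel, differed by −1.20 (SE 0.51) with overlap, and Clic1 by 0.37 (SE 0.16). Piezo1 had 3 probe sets, and only that with the highest mean is given.

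Markers of most other cell types were lower in RANKL-deficient cells, as were 60.5% of all genes and 75.6% of those below the median gene. All 9 measured markers of enteric neurons and glia, cells rich in voltage-gated channels, were lower, and their mean log2 value was 5.34 to 5.76 on the control arrays and 5.04 to 5.26 on the RANKL-deficient arrays. This list includes Ret, with means of 10.13 (control) and 10.07 (RANKL-deficient), which lymphoid tissue inducer cells express themselves. Without control arrays 1 and 2 its median difference was −0.31, against −0.28 over all arrays. Of 8 smooth muscle and Cajal cell markers, 7 were lower, with a list mean of 6.43, 5.78 and 5.22 on the control arrays and 5.02 to 5.44 on the RANKL-deficient arrays. The median difference of that list was −0.64 over all arrays and turned to 0.18 without control arrays 1 and 2.

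Mast cell, endothelial and fibroblast, and epithelial markers were lower about as often, and macrophage, dendritic, B and plasma cell markers less often. Lower values were found for 7 of 7 mast cell markers (list mean 3.65 to 3.94 in control and 3.58 to 3.66 in RANKL-deficient cells), 8 of 9 endothelial and fibroblast markers (5.66 to 5.89 and 5.58 to 5.61) and 12 of 14 epithelial markers (5.17 to 5.26 and 4.77 to 5.34). Macrophage and dendritic cell markers were lower for 6 of 10 (4.99 to 5.09 and 4.59 to 5.09) and B and plasma cell markers for 5 of 8 (5.26 to 5.35 and 5.23 to 5.24). Their shares of 60.0% and 62.5% lay near the 60.5% of all genes. Control array 1 had the highest mean of the 6 arrays in the neuron and glia, smooth muscle, T cell, mast cell, and endothelial and fibroblast lists. The part of these cell types in the channel values was not tested.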

How the data were processed

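The authors deposited log2 values for 35556 probe sets on each of 6 arrays. The submitters' processing notes name RMA and Affymetrix Expression Console. No version and no genome build is given in the sources used here. RNA was amplified from 2 ng, per the labels' protocols, which can widen the scatter of dim genes, and arrays give no read depth, so their number limits the precision.

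Of the probe sets, 21789 had 1 annotated symbol, 1621 several and 12146 none in the table used here. The probe set with the highest mean stood for a gene. All 19938 genes were fitted together by lmFit and eBayes of limma 3.58.1, run under R 4.3.3 (two-sided, Benjamini-Hochberg adjustment, threshold 0.05), and the procedure was tested on simulated data. Named were 15 genes of known lymphocyte or store-operated roles, and in each direction the 12 members with the smallest p and the 5 with the largest difference. In each list of related genes, the 5 with the smallest p were named. Members and lists were chosen with earlier results of these data known. Alternatives were array weights, trend and robust options, a replicate block, other scalings, a filter on dim genes, other uses of probe sets, and leaving out arrays. The promoter that drives Cre is not reported here.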

Additional observations from a re-analysis of the deposited data

How the results depend on the processing

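No channel gene passed the adjusted threshold in any of the 16 alternatives, and of the 35 named members, 27 kept the direction of their difference in each alternative that could be computed for them. The 8 that did not were Kcnab2, Orai1, Orai2, Stim1, Stim2, Trpm2, Trpm4 and Trpm7, all from the genes named for known lymphocyte or store-operated roles. Most of the other named members were picked for a small p or a large difference on these same arrays. Their kept direction was therefore largely set by that choice. The counts at an unadjusted p under 0.05, 4 higher and 7 lower, depended on the processing. Lower members numbered 13 with array weights (8.44%, against 5.68% of all genes), 3 after quantile normalization (1.95%, against 3.88%) and 3 after cyclic loess (1.95%, against 3.34%). Among the 35 members above the median gene there were 2 higher and 2 lower at that p (5.71% each, against 6.38% and 2.83% of all genes above it). Without overlap, 2 of them were higher and 5 lower (5.71% and 14.3%, against 9.12% and 6.11% of all genes above it). Without control arrays 1 and 2 there were 2 higher and 5 lower at that p (1.3% and 3.25%, against 2.75% and 3.54% of all genes), and 45 higher and 42 lower without overlap (29.2% and 27.3%, against 25.6% and 26.1% of all genes), since 1 control array overlaps less often. Cyclic loess gave 8 higher and 11 lower without overlap, in place of 4 and 21 (5.19% and 7.14%, against 6.5% and 6.6% of all genes), and the cause was not tested. When 1 array was left out, the count at that p was 3 higher each time (1.95%, against 3.16% to 6.74% of all genes). It ran from 1 to 14 lower (0.649% to 9.09%, against 2.39% to 7.37% of all genes). Without overlap, where fewer arrays overlap less often, 4 to 10 members were higher (2.6% to 6.49%, against 8.27% to 11.7% of all genes). Lower without overlap were 25 to 69 members (16.2% to 44.8%, against 13.4% to 23.7% of all genes). The lower count of 1 came without RANKL-deficient array 3, a count of 3 without RANKL-deficient array 1 or 2, and 14 and 69 without control array 3 (9.09% and 44.8%, against 7.37% and 23.7% of all genes). The median difference of −0.11 lay between −0.17 (without control array 3) and −0.05 (without control array 1) in these fits, was −0.02 after cyclic loess and 0.01 without control arrays 1 and 2.

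Replicate numbers did not pair the arrays. Deviations from the group means correlated at −0.02, 0.05 and 0.03 across genes for same-numbered arrays, and not every array correlated best with its own number. With the replicate block, 3 members were higher and 6 lower at an unadjusted p under 0.05 (1.95% and 3.9%, against 4.68% and 3.32% of all genes), and 0 passed the adjusted threshold.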
